A study of Homo sapiens with 2 samples.

Results

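Transcript models on the strand opposite an annotated gene were examined in native RNA of GM12878, a human B-lymphoblastoid cell line made by transformation with Epstein-Barr virus. The models described are those that the authors' table marks as antisense and that were chosen by their read counts, with at least 1 read in each of the 2 libraries. The rule found 587 of the 2819 antisense models, among 237608 models in the table. Both libraries were prepared from depleted RNA of GM12878 cells, with no treatment named in the labels, with a direct RNA kit in which the native strand itself passes the pore, and form 1 group of 2 replicates. The labels do not say whether the replicates were separate cultures, so each p-value measures only the difference between these 2 libraries, which may be technical. A single cell line cannot stand for B cells in general.

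Antisense transcription produces RNA from the strand that does not encode the gene at the same locus. Such RNA can overlap a promoter, an exon, an intron or the end of the gene, and some antisense RNAs are known to alter chromatin, splicing or stability of the opposite transcript. Many are long noncoding RNAs of low abundance, either spliced or made of a single exon. A direct RNA read keeps the orientation of the molecule, so its strand does not depend on the synthesis of a second DNA strand.

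Replicate 1 held 1360368 reads in all and replicate 2 held 1510998, so 1 read was worth 0.735 CPM (reads divided by the library total on a fixed common scale) in the former and 0.662 CPM in the latter. The 7 B cell markers reported, among them MS4A1, CD79A and PAX5, had from 39.7 to 7766 CPM in replicate 1 and from 46.3 to 8088 CPM in replicate 2. Of 6 markers of other lineages, ALB, GATA1 and HBG1 had no read in either library. The highest of these 6, CD3E of T cells, had 5 and 16 reads. The counts of the libraries differed by more than counting error, with a chi-square of 5.84 per model over the 25381 models with at least 10 reads, so they were kept as 2 replicates.

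All 587 models belonged to unannotated genes that the table marks as antisense, and each model belonged to a gene of its own. The same holds for all 2819 antisense models, which lie in 2819 genes, so it is not particular to the members. None was assigned to an annotated gene. The table pairs these identifiers with no symbol and no position, so the sense gene, the chromosome and the sequence of each model were not analysed here. The models are named by the identifiers of the authors' table.

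Single exon models made up nearly all of the group. This holds only for models marked as antisense. Further models of the same genes carry other marks, and 179 of those 205 models were spliced. There were 552 models with 1 exon (94.0%), 28 with 2 exons, 6 with 3 exons and 1 with 4 exons. The 35 spliced models were 5.96% of the group, which is given as a description because models are not replicates. With at least 2 reads required in each library, 268 models were left, and 8 of them (2.99%) were spliced. With at least 5 reads in each, 107 models were left, and 4 of them (3.74%) were spliced. Models with 5, 6 or 7 exons were found among all antisense models, 8 in all, and none of them had a read in both libraries.

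Recurrence is fixed by the rule and is given here as a description. Of the 2461 single exon antisense models in the table, 22.4% had a read in both libraries, and of the 358 spliced models 9.78% did. A model with a single read cannot recur, and single reads supported 68.2% of the single exon and 85.2% of the spliced models. Among models with 2 or more reads, 70.6% of 782 single exon models and 66.0% of 53 spliced models were in both libraries. At exactly 2 reads the shares were 45.5% of 314 and 40.7% of 27 models. At 3 reads 83 of 120 single exon and 11 of 11 spliced models were in both libraries, and at 4 reads 69 of 81 and 6 of 8 were. The spliced share was thus lower at 2 and 4 reads and higher at 3 reads, in few models, and the difference was not tested.

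Most members lay close to the limit of detection. The rule was met with exactly 1 read in each library by 154 models (26.2%), and the lower of the 2 counts was 1 in 319 models (54.3%). A further 292 models had 3 to 9 reads over both libraries, 124 had 10 to 99, and 17 had 100 or more. The median was 2 reads in each library. Just outside the rule were 248 antisense models with at least 2 reads in 1 library and none in the other. The most read of these were ENCODEHT000315560, a single exon model of 218 bases with 0 and 15 reads in replicates 1 and 2, and ENCODEHT000243470, a single exon model of 4551 bases with 10 and 0 reads. A count of 0 allows up to 3 reads, counting error only.

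**Figure D1:**
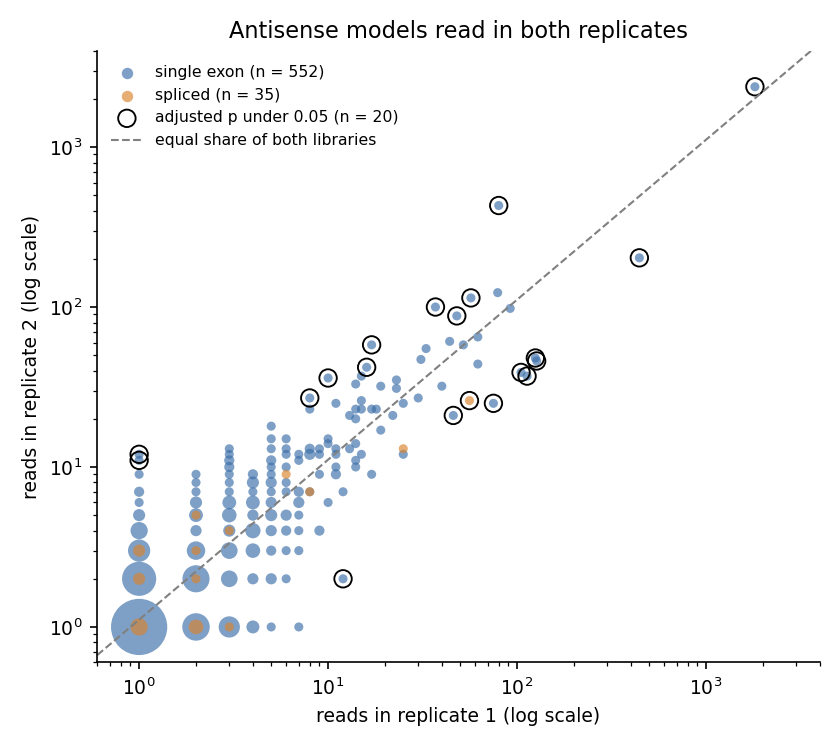
Reads of each antisense model in replicate 1 (x axis) and replicate 2 (y axis), both on log scales; the area of a filled point grows with the number of models at that pair of counts, open circles mark the 20 models with an adjusted p under 0.05 and the dashed line marks an equal share of both libraries. Most models sit at 1 to 3 reads in each library, and 1 single exon model stands at 1815 and 2382 reads.

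The 587 models held 5444 reads in replicate 1, which were 0.400% of the library (95% Wilson interval 0.390 to 0.411%). Their 6546 reads in replicate 2 made up 0.433% (0.423 to 0.444%), and the mean was 0.417% ± 0.0234 (SD, n = 2). These reads were 83.4% and 81.2% of the reads of all antisense models in the 2 libraries. Reads were concentrated in a few models. The 10 models with the highest lower count took 52.4% of the members' reads in replicate 1 and 55.1% in replicate 2.

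ENCODEHT000314363, a single exon model of 328 bases, had 1815 reads in replicate 1 and 2382 in replicate 2. This model alone took 33.3% and 36.4% of the members' reads. Without it, the members held 0.267% and 0.276% of the libraries. ENCODEHT000250351, a single exon model of 305 bases, followed with 444 and 203 reads, or 8.16% and 3.10% of the members' reads. ENCODEHT000603425, a single exon model of 357 bases, had 80 and 431 reads, 1.47% and 6.58%. The latter 2 models were in opposite order in the libraries. Read numbers are counts of strands and are not corrected for length. ENCODEHT000259966 (1 exon, 594 bases) had 92 and 98 reads, and ENCODEHT000348314 (1 exon, 770 bases) had 79 and 123 reads. All 5 of these most read single exon models were shorter than the median single exon member, 1006 bases.

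**Figure D2:**
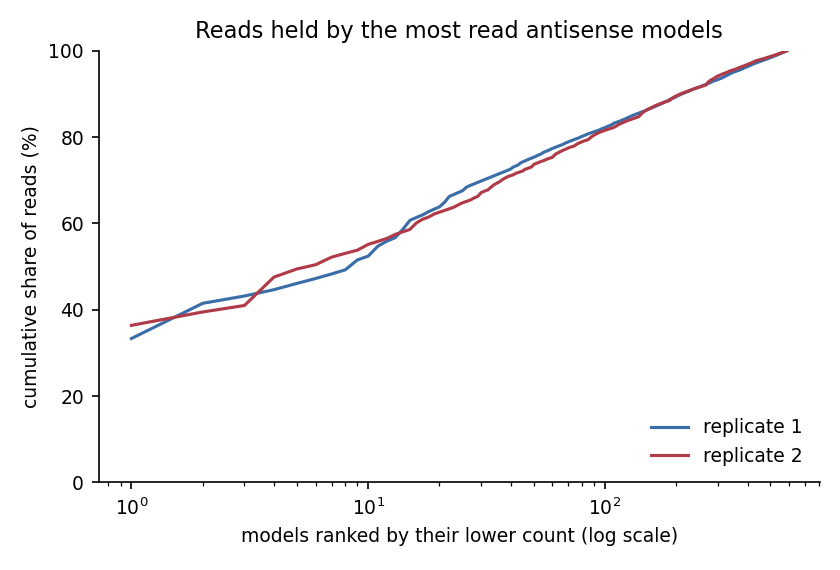
Cumulative share of the members' reads (y axis, %) against models ranked by the lower of their 2 counts (x axis, log scale), 1 line per replicate. The first model holds 33.3% (replicate 1) and 36.4% (replicate 2), and the first 10 hold 52.4% and 55.1%.

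The 35 spliced models held few of the members' reads. Together they had 140 reads in replicate 1 and 108 in replicate 2. A spliced member had a median of 3 reads over both libraries and a single exon member a median of 4, and 10 or more reads were found for 4 of 35 spliced (11.4%) and 137 of 552 single exon members (24.8%). ENCODEHT000243746, with 3 exons and 2294 bases, was the most read, with 56 and 26 reads. ENCODEHT000241943, with 2 exons and 3344 bases, had 25 and 13 reads. ENCODEHT000544518 (2 exons, 413 bases) had 8 and 7 reads, ENCODEHT000464997 (2 exons, 624 bases) 6 and 9, and ENCODEHT000490255 (2 exons, 2843 bases) 3 and 4. The counts of the last 3 of these models differed by at most 3 reads between the libraries. The other 30 spliced members had 2 to 7 reads in all, among them the single model with 4 exons, ENCODEHT000275725 (1267 bases), with 1 read in each library, and ENCODEHT000460778, a model of 3 exons and 554 bases with 2 reads and 1 read.

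The spliced share of the members' reads was 2.57% in replicate 1 (2.18 to 3.03%) and 1.65% in replicate 2 (1.37 to 1.99%), with 2.11% ± 0.652 as their mean (SD, n = 2). Replicate 2 minus replicate 1 was -0.92 percentage points, which was larger than counting error (two-sided Fisher's exact test on the reads, p = 0.000481). The rule used the same counts and the test treats each read as independent, so the difference is given as a description. The difference rested on the most read spliced models. Without ENCODEHT000243746 the shares were 1.56% and 1.26% (Fisher's exact p = 0.182), and without ENCODEHT000241943 as well they were 1.10% and 1.06% (p = 0.859).

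Lengths were a property of the model that the rule did not use. Single exon members had a median of 1006 bases (interquartile range 587 to 1529), and spliced members a median of 746 bases (467 to 1184). In the single exon group 278 models (50.4%) reached 1000 bases, and in the spliced group 10 models (28.6%) did. The direction depended on the read minimum. Among the 268 models with at least 2 reads in each library the median was 1032 bases for single exon and 1219 bases for the 8 spliced models, and with at least 5 reads in each the 4 spliced models had a median 503 bases above that of the single exon models. No test was made, because models are not replicates.

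**Figure D3:**
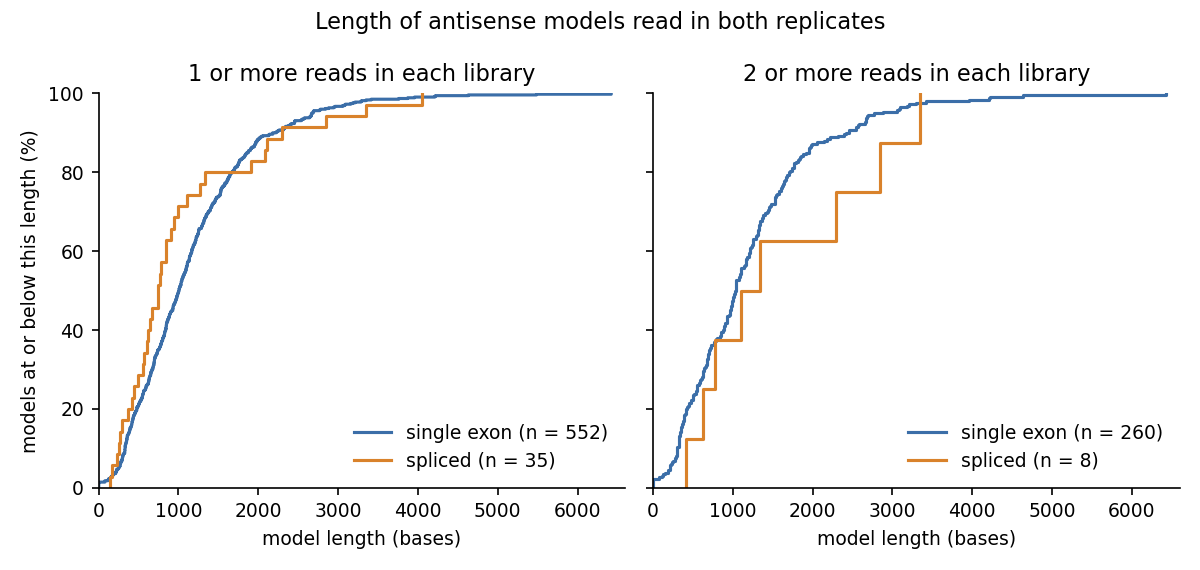
Cumulative share of models (y axis, %) against model length (x axis, bases) for single exon and spliced members, with 1 or more reads in each library on the left and 2 or more on the right. The spliced curve lies to the left of the single exon curve around its median of 746 bases in the left panel and to the right of it in most of the right panel, where it rests on 8 models.

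The longest members were single exon models with few reads. ENCODEHT000668301 had 6422 bases with 2 and 3 reads, and ENCODEHT000242171 had 5485 bases with 2 reads and 1 read. ENCODEHT000242780, of 4631 bases, had 52 and 58 reads and was the only one of these 3 with 10 or more. In all, 20 members reached 3000 bases and 22 were shorter than 200 bases. Of the latter, 7 single exon members were listed at a length of 1 base, with 2 to 24 reads each over both libraries, so the listed length of a single interval need not be that of the reads.

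Weighted by reads, the mean length of a member was 934 bases in replicate 1 and 810 bases in replicate 2, 872 ± 88.1 (SD, n = 2), below the unweighted median of 987 bases. Without ENCODEHT000314363 the weighted means were 1237 and 1085 bases. Replicate 2 had the lower weighted length in both cases.

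The members were compared with 3 similar groups of models read in both libraries. These were 547 intergenic models, which lie outside annotated genes, 10561 genomic models, which lie within a gene but fit none of its splice patterns, and 256 known models of genes that GENCODE release 29 types as antisense. All groups come from the same 2 libraries, so no test over libraries was made and the values are given side by side. The median length was 987 bases for the members, 965 for intergenic, 1022 for genomic and 873 for the known antisense models. Spliced models were 5.96% of the members, 6.22% of the intergenic, 0.795% of the genomic and 57.0% of the known antisense models. Spliced models held 2.11% ± 0.652 of the members' reads, 3.69% ± 0.701 of the intergenic, 0.289% ± 0.203 of the genomic and 69.7% ± 2.23 of the known antisense reads (SD, n = 2 each). The range of the members over the libraries, 1.65 to 2.57%, did not overlap the intergenic range, 3.19 to 4.19%, or the known antisense range, 68.1 to 71.3%. Over all models read in both libraries, 76.7% of models were spliced. They held 76.0% and 69.7% of the reads, a range that overlaps the known antisense range. Without ENCODEHT000314363 the members' values were 3.86% and 2.59%, which overlap the intergenic range. The members' spliced shares leave out the further models of their genes, of which 179 of 205 were spliced. Models with 2 exons in ENCODEHG000063972 alone, its member included, had 1126 and 352 reads. All spliced members had 140 and 108. The median number of reads was 4 in the members, in the intergenic and in the known antisense models, and 10 in the genomic models. The members held more reads than the intergenic models (0.188% and 0.230% of the libraries) or the known antisense models (0.0773% and 0.0824%). Without ENCODEHT000314363 the members' shares, 0.267% and 0.276%, were still above those of both groups. The known antisense group is only a part of the reads of its genes. All models of genes typed antisense held 0.281% and 0.305% (3829 and 4612 reads), above the members' shares without ENCODEHT000314363. That sets whole genes against 1 model per gene. Counted in the same way, all models of the unannotated antisense genes had 9985 and 10091 reads, more than the annotated genes.

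Recurrence by read number, which the rule fixes for the members, is given for all antisense models in the table as a description. With exactly 2 reads, 45.2% of 341 antisense, 47.5% of 339 intergenic and 44.7% of 2537 genomic models had 1 read in each library. Over all models of the table this share was 45.9% of 27631, close to that of each class. At any number of reads, 20.8% of 2819 antisense models and 29.6% of all 237608 models were in both libraries. With 5 to 9 reads, 123 of 131 antisense, 114 of 120 intergenic and 2277 of 2436 genomic models were in both libraries. With 10 or more reads, 141 of 143 antisense, 99 of 100 intergenic and 5428 of 5440 genomic models were. No test was made of these shares.

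Annotated antisense RNAs give the background for this class. In the table, 1013 genes that GENCODE types as antisense had a read, 538 of them in both libraries, and all their models together held 0.281% and 0.305% of all reads. Of 10 well-known antisense RNA genes, 9 had reads in both libraries and TSIX had none. Of the 9 genes with reads, 6 are typed antisense in this release, and the type of TSIX was not retrieved. ZFAS1, a snoRNA host gene on the strand opposite ZNFX1 (chromosome 20, 49278178 to 49295738, plus strand, GRCh38), had 305 and 444 reads, a log2 ratio of replicate 2 to replicate 1 of 0.39 (adjusted p = 0.0094 over 10634 annotated genes, exact binomial test). It was the only 1 of the 8 tested genes of this list past the threshold, against 5.05% of all annotated genes. The median log2 ratio of the 8 was -0.12, beside 0.01 over all annotated genes tested. OIP5-AS1, a cytoplasmic long noncoding RNA (chromosome 15, 41283990 to 41309737, plus strand), had 56 and 53 reads, and PSMB8-AS1, opposite an immunoproteasome gene (chromosome 6, 32844086 to 32846495, plus strand), had 58 and 50.

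Agreement between the libraries was examined for the 141 members with at least 10 reads over both. The rule used the same counts, since a read was required in each library, and what follows is a description from which nothing is read about the class. Of these, 20 members (14.2%) passed an adjusted p of 0.05 in the exact binomial test (two-sided, expected share from the library totals), adjusted over all 25381 models tested, of which 15.6% passed. Higher counts in replicate 2 were found in 11 members, where 8.23% of all models tested were higher, and lower counts in 9, where 7.34% were lower. The split depended on the scaling. With TMM library sizes 17 members passed (16.4% of all models tested), 6 higher (6.27% of all) and 11 lower (10.1% of all). DESeq2 size factors were equal for the libraries, so under them the counts were compared without correction for the library totals. With these factors 21 passed (15.6% of all), 13 higher (10.5%) and 8 lower (5.11%). With no read minimum 12 members passed (0.865% of the 237608 models), 5 higher (0.449%) and 7 lower (0.416%). The median log2 ratio was 0.38 over the 141 members and 0.14 over all models tested. It was also 0.38 over the intergenic, 0.44 over the genomic and 0.09 over the known antisense models, with the same read limits. TMM shifted all ratios, to medians of 0.24 for the members and -0.01 for all models tested, and DESeq2 factors to 0.53 and 0.29. A scaling adds 1 constant to every ratio, so the distance between these 2 medians was kept by arithmetic. A log2 ratio within 1 in either direction was found for 70.9% of the members and for 68.2% of all models tested.

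Some of the most read members were among those that differed. ENCODEHT000603425, with 80 and 431 reads, had a log2 ratio of 2.27 (95% exact interval of the counts 1.93 to 2.64, adjusted p = 6.01e-49, exact binomial test). ENCODEHT000250351, with 444 and 203 reads, had a ratio of -1.28 (-1.53 to -1.04, adjusted p = 2.73e-25, exact binomial test). These 2 single exon models moved in opposite directions, and both stayed past the threshold under every scaling and read minimum tried. ENCODEHT000314363 had a ratio of only 0.24 (adjusted p = 2.91e-06, exact binomial test), which fell to 0.10 with TMM (adjusted p = 0.131). The counts of ENCODEHT000259966 did not differ beyond counting error (log2 ratio -0.06, 95% exact interval -0.49 to 0.37). ENCODEHT000348314 had a ratio of 0.48 with an adjusted p of 0.0967 in the exact binomial test. It passed the threshold only with DESeq2 factors, which leave the library totals uncorrected, at 0.64 (adjusted p = 0.0209, exact binomial test).

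The largest ratios belonged to models with few reads. ENCODEHT000384761 (1 exon, 805 bases) had 1 and 12 reads, a log2 ratio of 2.91 with an exact interval of 0.68 to 8.85. ENCODEHT000531121 (1 exon, 162 bases) had 1 and 11 reads, a ratio of 2.79 (0.53 to 8.74). ENCODEHT000242913 (1 exon, 218 bases) had 12 and 2 reads, a ratio of -2.47 (-5.94 to -0.57). The models with 1 read in replicate 1 did not pass with TMM sizes, and the one with 12 and 2 reads did not pass with DESeq2 factors. ENCODEHT000242997, a single exon model of 3958 bases, had 113 and 37 reads, a ratio of -1.75 (-2.34 to -1.22, adjusted p = 2.28e-10, exact binomial test), and passed under every setting tried. The 9 members lower in replicate 2 had a median of 1855 bases and the 11 higher ones a median of 805 bases, against 933 bases for the members that did not pass. Of the 9 lower members, 7 had gene numbers from 64129 to 64246, a stretch described under the other observations. The other 2, ENCODEHT000250351 and ENCODEHT000214642, had 305 and 392 bases. In the whole table the read-weighted length was also lower in replicate 2, at 1324 against 1458 bases for models read in both libraries, and its part in these ratios was not tested.

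**Figure D4:**
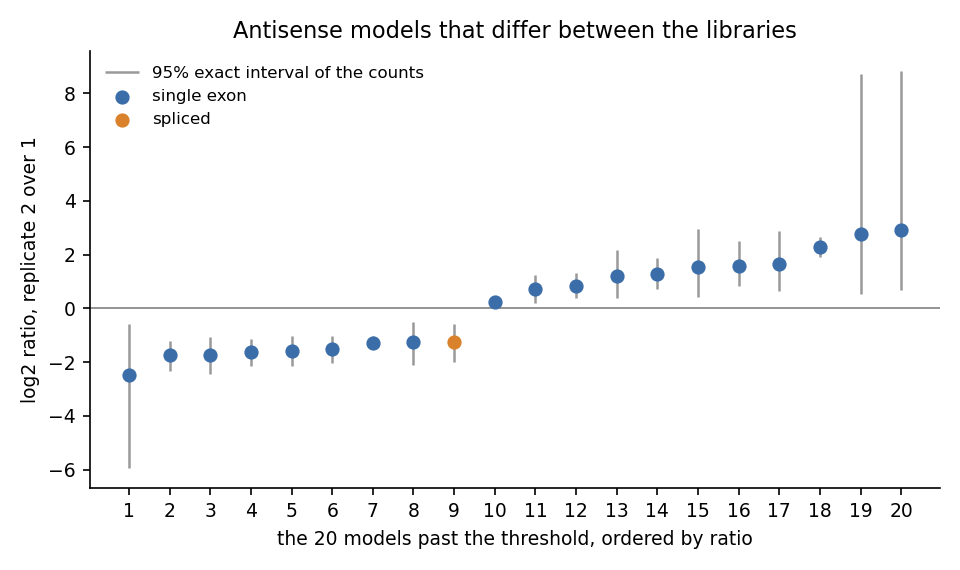
Log2 ratio of replicate 2 to replicate 1 (y axis) of the 20 members with an adjusted p under 0.05, ordered by ratio along the x axis; points are the ratios after adding 0.5 reads to each count and lines are 95% exact intervals of the counts. The 9 lower members run from -2.47 to -1.24 and the 11 higher ones from 0.24 to 2.91, and the widest intervals belong to the models with 1 read in replicate 1.

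Of the 4 spliced members with at least 10 reads, 1 passed the threshold, where 15.6% of all models tested did. ENCODEHT000243746 had a log2 ratio of -1.24 (-1.99 to -0.56, adjusted p = 0.00225, exact binomial test) and passed under every setting tried. ENCODEHT000241943 had a ratio of -1.07 (-2.18 to -0.07), with an adjusted p of 0.137 in the exact binomial test. ENCODEHT000544518 and ENCODEHT000464997, with 15 reads each, had ratios of -0.33 and 0.40 and intervals that include 0. Among the 3 longest members, ENCODEHT000242780 had a ratio of 0.00 (-0.56 to 0.57).

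Across the 587 members Spearman's rho between the counts of the libraries was 0.692, and it was 0.689 over the 141 members with at least 10 reads. These coefficients are across models of the same 2 libraries, and the rule removes models with a count of 0.

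The unannotated genes of the members can hold further models, which the table assigns to other categories. Since each gene held 1 member, these further models show whether a member was the only form read under its gene identifier. Without positions, forms at the same locus under another identifier could not be seen. In 540 of 587 genes (1 member each) there was no other model. The other 47 genes held 205 further models, of which 78 were marked as having an unannotated splice site (NNC), 75 as genomic, 39 as new combinations of splice sites (NIC) and 13 as incomplete splice matches (ISM). Further models were present in 19 of 35 genes with a spliced member (54.3%) and in 28 of 552 genes with a single exon member (5.07%). In all 28 of the latter at least 1 further model was spliced, and in 5 of them such a spliced model was read in both libraries. Some genes whose member has a single exon thus also held spliced reads. Counting every model, 711 of 3002 unannotated antisense genes had a read in both libraries, 124 of them without a member.

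Of the 205 further models, 107 lay in a single gene, ENCODEHG000063972, whose member is the spliced model ENCODEHT000241943 and which was chosen after its values were seen. Of these 107 models, 41 were read in both libraries, and all models of the gene had 2168 reads in replicate 1 and 888 in replicate 2. These were 21.7% and 8.80% of the reads of all unannotated antisense genes. The member itself had 1.15% and 1.46% of the reads of this gene. The most read form was a single exon genomic model of 917 bases, ENCODEHT000241951, with 759 and 395 reads. Without this gene, the further models of the other 46 genes had 158 and 119 reads, and no gene had more than 7. ENCODEHG000070454, the gene of the member with 4 exons, had these 7, and ENCODEHG000125642, with the single exon member ENCODEHT000647232 (57 and 114 reads), had 6.

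The gene ENCODEHG000063972 had 100 models with 2 exons, and most of their reads lay at evenly spaced lengths. The 4 lengths with most reads, which 24 of the 100 models had, were 2025, 2150, 2275 and 2400 bases, each 125 bases longer than the one before. Models of exactly 2400 bases were the most frequent, with 12 models and 358 and 113 reads. The 5 models of 2150 bases had 248 and 83 reads, the 2 models of 2025 bases 247 and 63, and the 5 models of 2275 bases 97 and 40. Together these 4 lengths held 84.4% and 84.9% of the reads of the gene's models with 2 exons. The counts were lower in replicate 2 at each of them. Of the 28 models of this gene with at least 10 reads, 16 passed the threshold, all 16 lower in replicate 2, against 7.34% of all models tested. Models of 1 gene share their locus and are not independent.

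**Figure D5:**
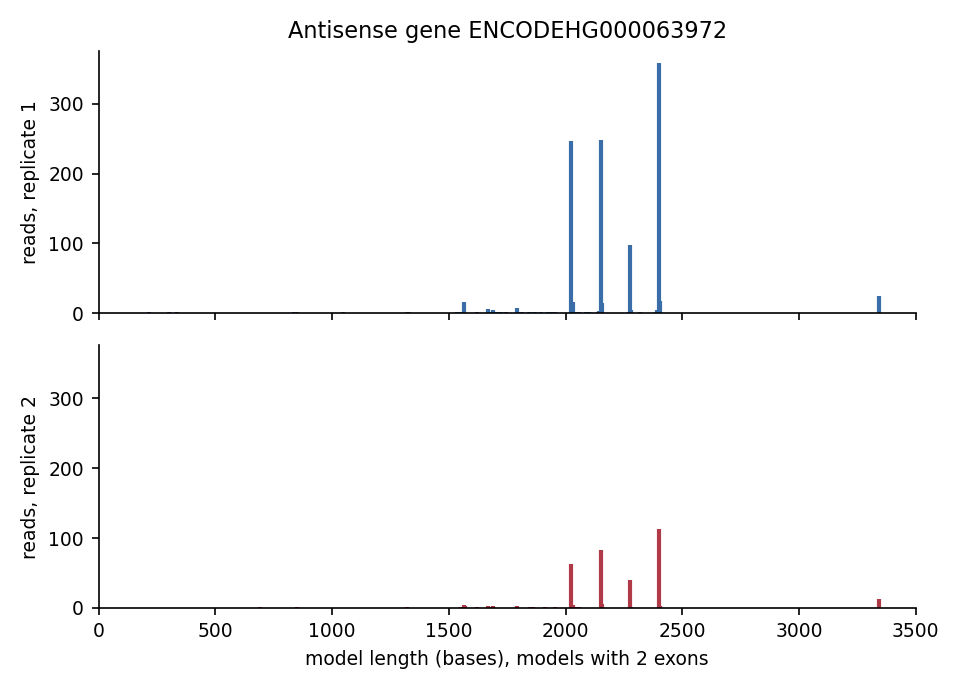
Reads (y axis) summed over the models with 2 exons of each length (x axis, bases) in the antisense gene ENCODEHG000063972, with replicate 1 above and replicate 2 below on the same scale. Reads stand at 2025, 2150, 2275 and 2400 bases in both libraries, and the member of 3344 bases is the small bar on the right.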

How the data were processed

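Direct RNA libraries of GM12878 were analysed from 1 table of raw read counts, deposited by the authors, 1 row for each transcript model and 1 count column for each replicate. Number of exons and length of each model, properties in other units than reads, were also deposited by the authors. The submitters' processing notes name minimap2 and hg38; versions and read filters are not given in the sources used here. The categories follow the authors' program, TALON. Gene types and positions came from GENCODE release 29 (GRCh38). Columns were matched to replicates by title.

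Counts were tested by exact binomial tests (two-sided, expected share from the library totals, scipy 1.17.1) over models with at least 10 reads; adjustment was by Benjamini-Hochberg and the threshold 0.05. Log2 ratios add 0.5 reads to each count. No contrast between groups exists, so the edgeR group test could not be made. Alternative scalings came from edgeR 4.0.16 (TMM) and DESeq2 1.42.0, whose equal factors left the library totals uncorrected. The test was checked on simulated counts that vary by counting error only. Changes were set only in models with many reads, so the check does not cover most members or the wider spread between these libraries. Other alternatives were read minimums, a minimum length of 200 bases, unannotated genes in place of models, other pseudocounts and leaving out the most read models. Shares of reads carry 95% Wilson intervals, which cover counting error only. Models were named by rule: the 5 spliced and 5 single exon members with the highest lower count, the 3 with most exons, the 3 longest, and the 2 largest ratios in each direction past the threshold. The rule's 3 genes with most members could not be chosen, since each gene held 1. The members, lists and rules were chosen with earlier results of these data known. Of the fixed B cell markers, 1 is not reported here.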

Additional observations from a re-analysis of the deposited data

How the results depend on the processing

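No paired analysis was possible because both libraries form 1 group. The number of members fell from 587 to 268 with 2 reads and to 107 with 5 reads required in each library; it was 565 with a minimum of 200 bases. The spliced share of models was then 2.99% and 3.74%. The median length of spliced minus single exon members was -260 bases and reversed to 186.5 bases with 2 reads and to 503 bases with 5 reads in each library, where 8 and 4 spliced models were left. The mean spliced share of reads was 3.23% without the model with most reads. Alternatives chosen after seeing the data, without the most read spliced model and without the 2 most read, gave 1.41% and 1.08%, and replicate 2 minus replicate 1 gave -0.301 and -0.0397 percentage points, no longer past the threshold. The single libraries gave 1.65 to 2.57%. The mean share of all reads was 0.481% without genomic models in the total, 0.384% and 0.344% with 2 and 5 reads in each library, and 0.271% without the most read model; the single libraries gave 0.400 to 0.433%, which by arithmetic says nothing about stability. With every model of the table tested, 12 members differed between the libraries in place of 20, 5 higher and 7 lower, since the adjustment then ran over 237608 models. Over all models, 2055 passed in place of 3951. The median log2 ratio of the members was 0.53 with DESeq2 size factors, an alternative added after seeing the data. Among the named models, ENCODEHT000259966 turned from -0.06 to 0.0907 with DESeq2 factors and ENCODEHT000242780 from 0.00 to -0.14 with TMM; neither passed the threshold under any setting. Without a read minimum, ENCODEHT000384761, ENCODEHT000531121 and ENCODEHT000242913 did not pass. Depth limits most members: with 1 or 2 reads in a library, only very large differences could be seen.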

Other observations

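Identifiers of unannotated genes are numbered in the table, and what the order of the numbers stands for is not given in the sources used here. Of the 9 members lower in replicate 2, 7 had gene numbers from 64129 to 64246, a small stretch of the members' range from 58967 to 133838. This stretch was chosen after the values were seen and its ends are themselves members lower in replicate 2, so the choice fixes the contrast and no test was made. It held 20 members, 13 of them with at least 10 reads, with a median log2 ratio of -1.24; 1 of these was higher in replicate 2. Over both libraries the 20 members had 636 and 307 reads, and their median length was 1849 bases. The other 128 members with at least 10 reads had a median log2 ratio of 0.38, with 2 lower and 10 higher in replicate 2. Over all models tested 7.34% were lower and 8.23% higher.

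The directions of the differences between the libraries are given here for the similar groups of models, beside 8.23% higher and 7.34% lower (15.6% in either direction) over all models tested. Of 99 intergenic models with at least 10 reads and a read in both libraries, 14 were higher and 4 lower in replicate 2. Of 5428 genomic models, 555 were higher and 32 lower. Of 48 known models of annotated antisense genes, 0 passed the exact binomial test at an adjusted p of 0.05, and 6 had an unadjusted p under 0.05. Whether these splits differ from that of the members was not tested.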
